A study of Mus musculus with 24 samples.

Results

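Potassium channel genes were followed in Hes5-lineage cells sorted from the adult mouse hippocampus, with and without the receptor gene Notch2. The members were the 87 genes with a symbol of the form Kcn, family letter and number, and at least 10 reads summed over all libraries, out of 48321 gene symbols counted. Kcnj8 was left out of the rule. 91 symbols had the right form, and 4 of them, Kcnk16, Kcnk9, Kcna10 and Kcna7, stayed below the minimum with 4 to 7 reads. The members just above it were Kcne1 with 13 reads, Kcnj15 with 17 and Kcnv2 with 20. The 87 members belong to 20 gene families: 72 encode pore-forming subunits and 15 encode accessory subunits.

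The cells came from C57BL/6 adults of the lines Hes5::CreERT2, Rosa26R-CAG::GFP. The wild-type (WT) animals carried Notch2 wt/wt and the conditional knockout (CKO) animals Notch2 flox/flox. Both genotypes carried the Cre and the GFP reporter and received tamoxifen for 5 days. GFP-positive cells were sorted after a chase of 1 day, from pooled animals, and sequenced with the Smart-seq2 and Nextera XT chemistry. Each genotype had 3 pools, and each pool had 2 libraries read on 2 lanes. The pool was the unit of comparison. Cre was driven by Hes5, a Notch target gene that is active in neural stem cells and also in astrocytes, so GFP marks every cell type in which Hes5::CreERT2 was active. Nothing in the labels says how many animals made up a pool.

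Potassium channels let potassium ions pass through the membrane and hold most cells at a negative resting voltage. Inward rectifiers and tandem-pore (K2P) channels carry this resting current, and in astrocytes they also take up potassium that active neurons release. Voltage-gated, KCNQ and EAG channels open on depolarization, and calcium-activated channels link the membrane to calcium signals. Modulatory subunits of the Kcnf, Kcng, Kcns and Kcnv families form no channel alone and change the currents of voltage-gated partners. Accessory subunits bind the pore-forming subunits.

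Reads assigned to genes ranged from 40366579 to 53984963 per pool. Levels are given as CPM, counts scaled to a total of 1000000 reads, at the library size adjusted by edgeR's TMM method, where 3 reads equal 0.0526 to 0.0795 CPM. In the third WT pool, 39.4% of all genes with a mean of 10 to 100 CPM differed by more than 4-fold between the pool's own libraries, against 2.04% to 13.2% in the other pools. That pool stood apart from the rest, so results are also given without it where it matters. The file descriptions carry a tag for each pool, 20K, 12K and 2K for WT and 19K, 4K and 9K for CKO, whose meaning is not given. The third WT pool has the lowest tag, and the part of what the tag stands for in that spread was not tested. Notch2 itself had 99.3, 146 and 303 CPM in the WT pools and 65.3, 116 and 121 CPM in the CKO pools. The groups overlapped, with a log2 fold change of -0.86 (SE 0.45, edgeR unadjusted p = 0.0997), and of -0.29 without the third WT pool. Counts over the whole gene do not resolve the deleted exons. Astrocyte markers summed to 24862 to 27150 CPM in WT and 23684 to 36741 CPM in CKO pools, and stem cell markers to 1974 to 2427 and 2250 to 3170 CPM. Oligodendrocyte markers reached 2388 to 6445 CPM in WT and 3212 to 5600 CPM in CKO pools, and endothelial markers 18.7 to 108 CPM in WT and 9.70 to 39.5 CPM in CKO pools. Excitatory neuron markers had 356 to 1003 CPM in WT and 373 to 453 CPM in CKO pools. Oligodendrocyte precursor markers had 1726 to 3075 CPM in WT and 1179 to 3391 CPM in CKO pools, lowest in the third CKO pool. Mural cell markers had 205.5 to 281.7 CPM in WT and 162.2 to 199.4 CPM in CKO pools, so these sums did not overlap. None of the 8 mural markers separated alone, and Cspg4 is in this list and the precursor list. The sums of microglia, interneuron, neuroblast and red blood cell markers overlapped. Red blood cell markers had 392 CPM in the first WT pool and 14.3 to 118 CPM elsewhere. In such pooled cells, fewer cells of a type and less RNA per cell cannot be told apart.

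The members took a small share of each pool. Their summed level was 1787, 2069 and 2482 CPM in the WT pools and 2580, 2201 and 2328 CPM in the CKO pools, which is 0.179% to 0.258% of a library. The groups overlapped, with means of 2113 ± 350 CPM for WT and 2369 ± 193 CPM for CKO (SD, n = 3 pools each). 6 genes, Kcnip3, Kcnk1, Kcnj16, Kcnn2, Kcnj10 and Kcnn3, held 67.5% to 77.7% of it in every pool. To compare genes, levels were also divided by the length of all exons. On this scale 6 members exceeded 10 CPM per kb, 31 lay between 1 and 10, and 50 were below 1, with a median of 0.716 CPM per kb.

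Kcnk1 stood first with a mean of 195 CPM per kb and a range over pools of 117 to 281. Kcnip3 followed at 142 CPM per kb (102 to 187). It was below Kcnk1 in 5 of 6 pools, so the top pair was not ordered the same way everywhere. Kcnj16, at 69.6 CPM per kb (30.02 to 93.6), was below Kcnip3 and above Kcnj10 in 6 of 6 pools. Kcnj10 had 27.7 CPM per kb (16.5 to 43.1) and Kcnn2 22.2 (13.7 to 34.2), in that order in 4 of 6 pools. Kcnn3 had 10.7 CPM per kb (5.12 to 15.5) and was below Kcnn2 in 6 of 6 pools. Next came Kcnk13 at 7.76, Kcna2 at 6.62, Kcnd2 at 6.44 and Kcna6 at 6.20 CPM per kb. Each of these held its place over the next gene in 2 to 4 of 6 pools, so these neighbours cannot be ordered. The plot of levels by pool shows the 23 members named here.

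**Figure D1:**
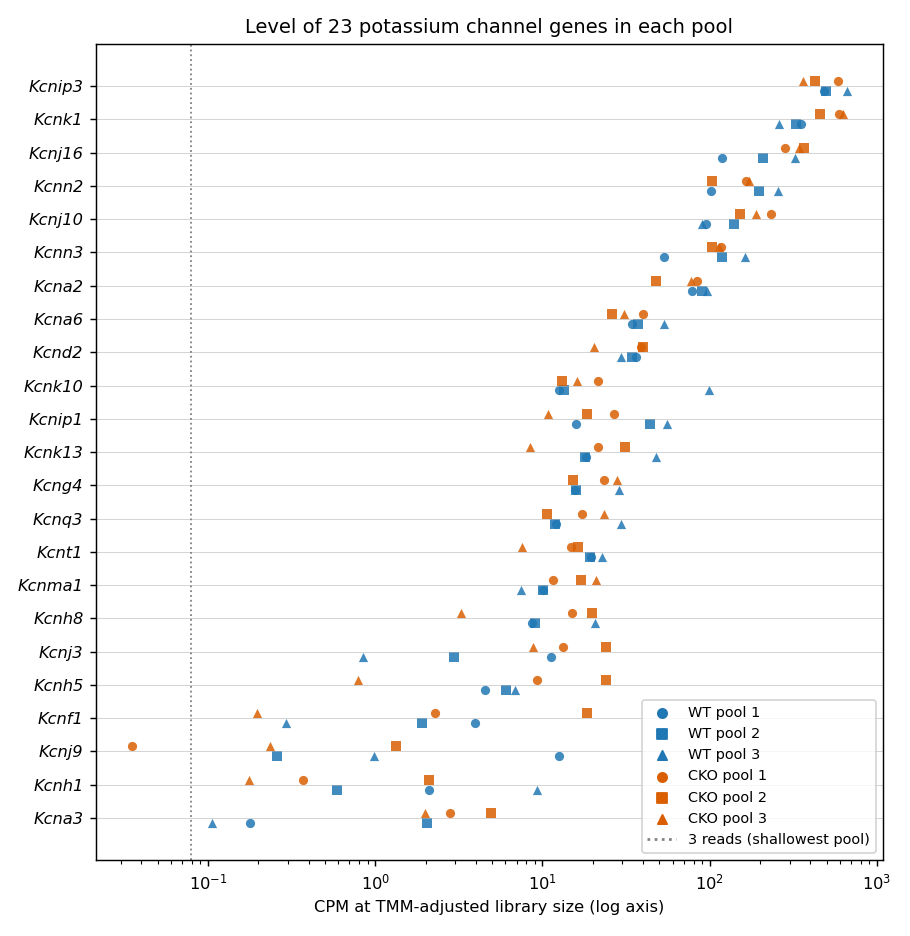
Level of the 23 named potassium channel genes (vertical axis) in each pool, in CPM on a log axis, with WT pools in blue, CKO pools in orange and a marker shape for each pool number. The dotted line is the level of 3 reads in the shallowest pool; Kcnip3, Kcnk1, Kcnj16, Kcnn2, Kcnj10 and Kcnn3 have the highest means, though Kcna2 and Kcnk10 exceed Kcnj10 in the third WT pool and Kcna2 exceeds Kcnn3 in the first, and genes below 10 CPM spread most between pools.

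The comparison of genotypes asked whether these genes differ after Notch2 deletion. Of the 87 members, 66 had enough reads to be tested and none passed: 0 of 66 were below an adjusted p of 0.05 by edgeR's quasi-likelihood test with Benjamini-Hochberg adjustment, as were 0 of all 21477 genes tested (0%). At an unadjusted p under 0.05, 2 members, Kcnk1 and Kcnj10, were higher in CKO, against 3.01% of all genes, and 0 were lower, against 2.9%. In either direction this was 2 of 66 members, against 5.91% of all genes. In a plain comparison of pools, 3 members had every CKO pool above every WT pool, against 7.67% of all genes. They were Kcnk1, Kcnj10 and the calcium-activated channel gene Kcnma1. 1 member, the sodium-activated channel gene Kcnt1, had every CKO pool below every WT pool, against 8.17% of all genes. Together these 4 made up 6.06% of the tested members, and 15.8% of all genes separated in either direction, so the members' share was below the background. DESeq2 on the same genes called 80 genes higher (0.372%) and 44 lower (0.205%), none of them a member, and the smallest adjusted p of a member by DESeq2 was 0.140. With 3 pools a side, the exact two-sided permutation test over pools cannot give a p below 0.1.

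Fold changes of the members centred on 0. Their median log2 fold change was -0.01 (quartiles -0.46 and 0.74, range -3.11 to 3.02), and that of all genes tested was -0.06 (quartiles -0.53 and 0.49). 31 of 66 members lay above 0, a share of 47.0% beside 47.2% of all genes. Among the 27 members with a mean of at least 10 CPM the median was also -0.01. By role, the median was 0.52 for 9 tested inward rectifiers and 0.29 for 6 tandem-pore genes. It was 0.21 for 8 modulatory genes, 0.00 for 7 ion-activated genes and -0.01 for 15 voltage-gated genes. KCNQ (n = 5), EAG (n = 7) and accessory genes (n = 9) had medians of -0.05, -0.11 and -0.25.

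**Figure D2:**
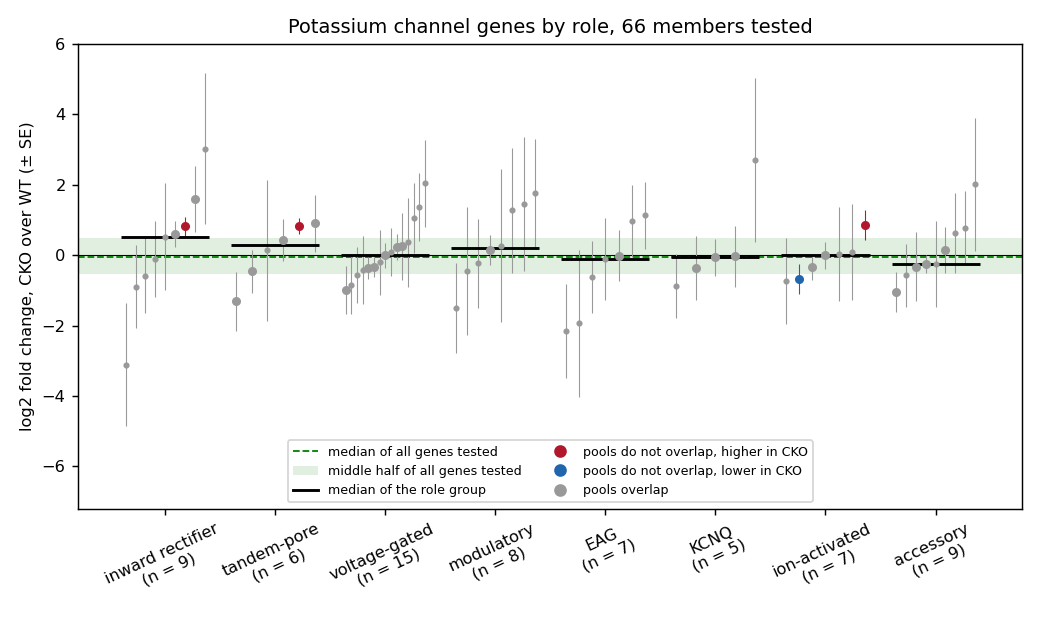
Log2 fold change of CKO over WT with its SE (vertical axis) for the 66 tested members, by role (horizontal axis), with large points for means of at least 10 CPM and a black bar at each role's median. Red and blue points are the 3 members whose pools separated upward and the 1 downward; the green line and band are the median and quartiles of all 21477 genes tested, and members lie inside the band and on both sides of it.

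Tandem-pore channels were led by Kcnk1, which encodes TWIK-1, a leak channel of astrocytes. Kcnk1 lies on chromosome 8, 125995170 to 126030685, plus strand (GRCm38). It had 353, 327 and 261 CPM in the WT pools and 594, 454 and 628 CPM in the CKO pools. The lowest CKO pool was above the highest WT pool. The means were 314 ± 47.1 and 559 ± 92.1 CPM (SD, n = 3), and the log2 fold change was 0.83 (SE 0.22). edgeR gave Kcnk1 an unadjusted p of 0.00635 and an adjusted p of 0.790, so it did not pass. Each library alone showed the same separation, with a log2 fold change of 1.06 in the first library and 0.65 in the second. Without the third WT pool it was 0.71, and over all alternative settings 0.65 to 1.06 with unadjusted p values of 0.00173 to 0.0272. Its DESeq2 p (0.00173) is the lowest of these.

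Among inward rectifiers, Kcnj10 encodes Kir4.1, the main potassium uptake channel of astrocytes. It lies on chromosome 1, 172341210 to 172374085, plus strand. Kcnj10 had 95.4, 140.2 and 89.4 CPM in the WT pools and 233, 151 and 189 CPM in the CKO pools. The groups did not overlap, although the second pools of each genotype were close. The means were 108 ± 27.8 and 191 ± 40.9 CPM (SD, n = 3) and the log2 fold change was 0.82 (SE 0.27). By edgeR, Kcnj10 had an unadjusted p of 0.0195 and an adjusted p of 0.790, so it did not pass either. The log2 fold change was 0.47 in the first library, where the genotypes overlapped, and 1.06 in the second, where they did not. Without the third WT pool it was 0.70, with an edgeR unadjusted p of 0.0534.

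The RefSeq windows of 250 bases before the transcript starts of Kcnk1 and Kcnj10 (GRCm38.p6, plus strand) are shown because these were the 2 members with the smallest p. Capitals mark CG dinucleotides.
Kcnk1, chr8:125994852-125995101: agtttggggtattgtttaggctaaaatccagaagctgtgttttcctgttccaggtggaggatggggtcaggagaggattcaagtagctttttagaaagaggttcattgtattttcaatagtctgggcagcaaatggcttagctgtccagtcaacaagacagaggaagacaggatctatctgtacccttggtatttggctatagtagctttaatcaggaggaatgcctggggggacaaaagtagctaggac
Kcnj10, chr1:172340960-172341209: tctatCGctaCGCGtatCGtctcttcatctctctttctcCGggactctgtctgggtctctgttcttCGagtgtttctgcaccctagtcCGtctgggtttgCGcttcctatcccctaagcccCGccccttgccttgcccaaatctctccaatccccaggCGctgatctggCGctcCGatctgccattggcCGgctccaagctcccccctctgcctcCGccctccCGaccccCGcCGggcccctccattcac
The Kcnk1 window has 44.4% G and C and 0 CG dinucleotides, and the Kcnj10 window has 62% and 17. Over the 88 windows of the 63 members with an entry, the median was 58.8% with 8 CG dinucleotides, beside 52.4% and 6 over all 32851 windows. Neither printed window holds, on either strand, the RBPJ letters TGGGAA, the Hes letters CACGNG or CACNAG, the full palindromic NFI motif, or TATAAA. RBPJ is the DNA-binding partner of cleaved Notch, and its letters stood in 21.6% of the members' windows and 21.6% of all windows. CACGNG stood in 18.2% of the members' windows and 23.5% of all, CACNAG in 43.2% and 36.7%, and TATAAA in 3.41% and 12.4%. The NFI motif was in none of the members' windows and in 0.0365% of all. A CACNAG match can overlap a CACGNG match (CACGAG).

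Kcnj16 encodes Kir5.1, a subunit that joins Kir4.1 in astrocytes. It had 118, 209 and 326 CPM in the WT pools and 281, 368 and 343 CPM in the CKO pools, so the third WT pool lay among the CKO pools. The log2 fold change was 0.61 (SE 0.37, edgeR unadjusted p = 0.141), and 1.014 without the third WT pool. The libraries of the same pools disagreed. In the first libraries the WT pools had 32.2, 115 and 71.6 CPM and the CKO pools 292, 427 and 354. In the second libraries the WT pools had 177, 316 and 557 CPM and the CKO pools 260.3, 319 and 329. The log2 fold change was 2.31 in the first libraries and -0.20 in the second, so its direction depended on the library. Kcnj16 exceeded Kcnj10 in CPM per kb by 1.65 to 5.00 times, with the highest ratio in the third WT pool.

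**Figure D3:**
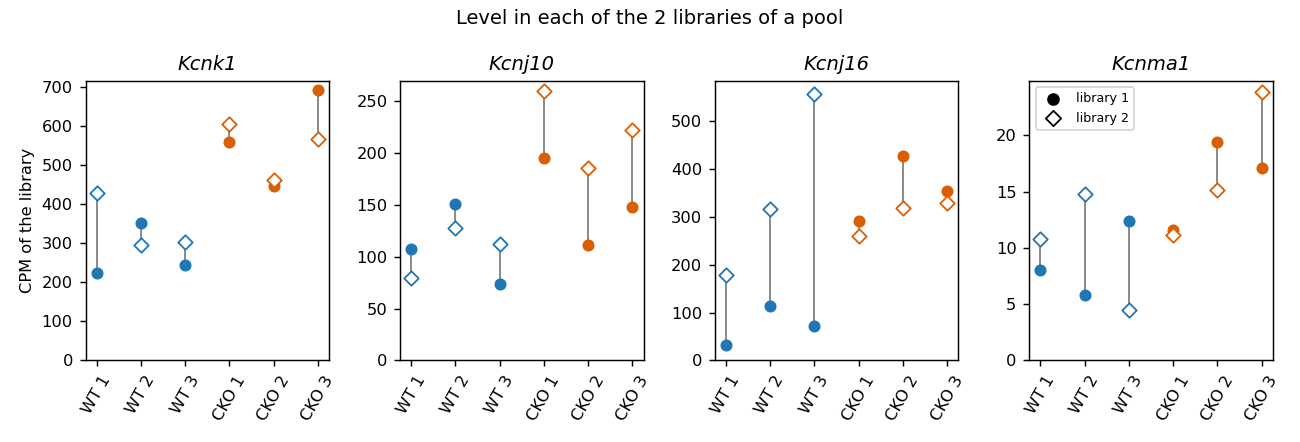
Level of Kcnk1, Kcnj10, Kcnj16 and Kcnma1 (one panel each) in CPM on a linear axis from 0, in library 1 (filled circles) and library 2 (open diamonds) of each WT (blue) and CKO (orange) pool, joined by a grey line. For Kcnk1 both libraries of every CKO pool lie above all WT libraries; for Kcnj16 the first WT libraries lie at 32.2 to 115 CPM and the second reach 557 CPM.

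The other 12 inward rectifiers were far lower. Kcnj3, a G-protein-gated (GIRK) channel subunit, had 11.3, 2.95 and 0.848 CPM in WT and 13.3, 24.001 and 8.81 CPM in CKO pools. The first WT pool lay within the CKO range, and the log2 fold change of Kcnj3 was 1.61 (SE 0.94). With 1 pool left out it ranged from 1.09 without the third WT pool to 3.02 without the first. Kcnj9, another GIRK subunit, had 12.5, 0.260 and 0.980 CPM in WT and 0.0351, 1.32 and 0.236 CPM in CKO pools. The high value of Kcnj9 came from 1 library of the first WT pool, with 21.3 CPM against 0.214 in the other, and its log2 fold change of -3.11 (SE 1.75) was -0.23 without that pool. Kcnj2, which encodes Kir2.1, was not tested. Its level was 3.09, 0.142 and 18.0 CPM in WT and 0.0351 to 0.177 CPM in CKO pools, and the third WT pool had 43.6 CPM in 1 library and 0.299 in the other. Summed over the 14 inward rectifiers, WT pools had 249.6, 355 and 441 CPM and CKO pools 534, 554 and 546 CPM. Kcnj10 and Kcnj16 make up most of this sum, so it repeats their values.

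Of the 5 other tandem-pore genes tested, 3 had fold changes above 0 and 2 below, and the pools of all 5 overlapped. Kcnk2, the mechanosensitive channel TREK-1, had 35.4, 20.4 and 2.89 CPM in WT and 39.0, 21.7 and 48.9 CPM in CKO pools. Kcnk2 had a log2 fold change of 0.90 (SE 0.80), or 0.39 without the third WT pool, where it was lowest. For Kcnk3 it was 0.44 (SE 0.60), and for Kcnk7, near the detection limit, 0.14 (SE 2.003). The value of Kcnk3 was -0.54 in the first libraries and -0.07 without the second CKO pool. Kcnk13, which encodes THIK-1, a channel of microglia, had 18.1, 17.9 and 47.9 CPM in WT and 21.5, 31.1 and 8.44 CPM in CKO pools. The log2 fold change of Kcnk13 was -0.46 (SE 0.61), and 0.17 without the third WT pool. The lowest Kcnk13 value was in the third CKO pool, where the microglia markers had their highest sum, 707 CPM against 249.7 to 354 CPM elsewhere. The part of microglia in the values of Kcnk13 was not tested. Kcnk10, the related channel TREK-2, had 12.6, 13.5 and 99.3 CPM in WT and 21.4, 13.0 and 16.0 CPM in CKO pools. Only the third WT pool stood out for Kcnk10, with 195 CPM in its first library and 36.8 in its second. The log2 fold change was -1.32 (SE 0.83) with that pool and 0.36 without it. The 12 tandem-pore genes summed to 430, 388 and 426 CPM in WT and 686, 542 and 710 CPM in CKO pools, most of it Kcnk1.

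Astrocyte content was set beside these genes, since Kcnk1, Kcnj10 and Kcnj16 are astrocyte channels. The summed astrocyte markers overlapped between genotypes. 6 of 10 lay above 0, with a median log2 fold change of 0.29, and none of the 10 was at 0 in any pool. Among the astrocyte markers, the pools of Slc6a11 separated upward in CKO and those of S100b downward. Per 1000 CPM of astrocyte markers, Kcnk1 had 14.2, 12.5 and 9.62 CPM in WT and 23.6, 19.2 and 17.1 CPM in CKO pools, again without overlap. Kcnma1 also stayed separate on this scale, at 0.274 to 0.403 in WT and 0.461 to 0.721 in CKO pools. Kcnj10 overlapped, at 3.29 to 5.34 in WT and 5.16 to 9.26 in CKO pools, and so did Kcnj16, at 4.75 to 11.99 and 9.34 to 15.6. This ratio was chosen after the values had been seen. A large part of the marker sum was Aldoc, with 14474, 11307 and 9040 CPM in WT and 7179, 7469 and 12608 CPM in CKO pools. Its log2 fold change was -0.35, while those of the abundant markers Gja1 and Slc1a3 were 0.70 and 0.46. The ratio therefore depends on the weight of Aldoc and cannot show that Kcnk1 or Kcnma1 separate apart from astrocyte content. No ratio without Aldoc was tested.

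**Figure D4:**
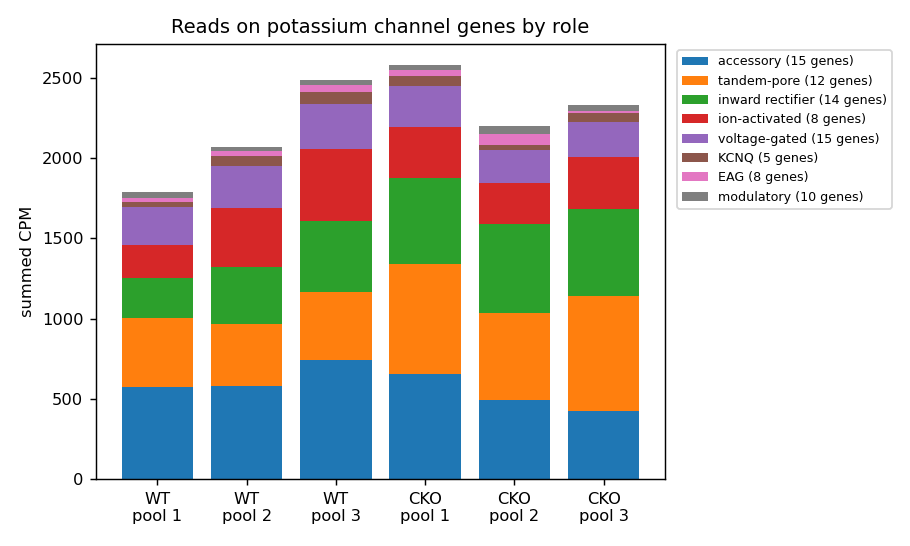
Summed CPM of the 87 members in each pool, stacked by role, with the number of genes of each role in the key. The inward rectifier and tandem-pore layers are taller in the 3 CKO pools than in the 3 WT pools, and the total overlaps between genotypes.

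Ion-activated channels included Kcnn2 and Kcnn3, the small-conductance calcium-activated channels SK2 and SK3. Kcnn2 had 102, 196 and 256 CPM in WT and 165, 104 and 172 CPM in CKO pools. Kcnn3 had 53.5, 119 and 162 CPM in WT and 116, 104 and 114 CPM in CKO pools. Both overlapped widely, with log2 fold changes of -0.33 (SE 0.38) for Kcnn2 and -0.00 (SE 0.39) for Kcnn3. Without the third WT pool these were -0.02 and 0.37. The ratio of Kcnn2 to Kcnn3 in CPM per kb stayed within 1.40 to 2.67 over the 6 pools.

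Kcnma1, the pore of the large-conductance BK channel, had 10.01, 10.01 and 7.44 CPM in WT and 11.6, 17.1 and 20.9 CPM in CKO pools. The CKO pools were all higher, but the first CKO pool only just. The means of Kcnma1 were 9.15 ± 1.48 and 16.5 ± 4.69 CPM (SD, n = 3), with a log2 fold change of 0.85 (SE 0.43). edgeR gave it an unadjusted p of 0.0866. Within each library the genotypes overlapped for Kcnma1, and without the third WT pool its log2 fold change was 0.72. Kcnt1, which encodes the sodium-activated channel Slack, had 19.6, 19.3 and 22.8 CPM in WT and 14.9, 16.2 and 7.53 CPM in CKO pools. Every CKO pool was lower, the third most of all, but within each library the genotypes overlapped. The means of Kcnt1 were 20.6 ± 1.92 and 12.9 ± 4.68 CPM (SD, n = 3), with a log2 fold change of -0.68 (SE 0.43), or -0.37 without the third CKO pool. edgeR gave Kcnt1 an unadjusted p of 0.155.

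All 15 voltage-gated members were tested, and all overlapped between genotypes. Kcna2, which encodes Kv1.2, had 77.9, 90.1 and 96.6 CPM in WT and 83.5, 47.9 and 76.8 CPM in CKO pools. Its log2 fold change was -0.34 (SE 0.28). In the first libraries Kcna2 did not overlap, at 84.0 to 126 CPM in WT and 49.1 to 69.4 CPM in CKO pools. In the second libraries it overlapped. Kcnd2, which encodes the A-type channel Kv4.2, had 36.3, 34.1 and 29.4 CPM in WT and 39.1, 39.9 and 20.3 CPM in CKO pools, with a log2 fold change of -0.01 (SE 0.35). Kcna6, or Kv1.6, had 34.1, 37.0 and 53.2 CPM in WT and 39.9, 26.2 and 30.6 CPM in CKO pools, with a log2 fold change of -0.36 (SE 0.32). These 3 genes had a spread within a genotype as large as the difference between genotypes. Kcna3, the Kv1.3 channel known from lymphocytes and microglia, was low, at 0.178, 2.05 and 0.106 CPM in WT and 2.81, 4.89 and 1.99 CPM in CKO pools. The second WT pool exceeded the third CKO pool for Kcna3. The log2 fold change of Kcna3 was 2.05 (SE 1.23). With 1 pool left out it ranged from 1.53 without the third WT pool to 4.53 without the second.

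Modulatory subunits were low, and 1 of the 10 had a mean of at least 10 CPM. This was Kcng4. Kcng4, the Kv6.4 subunit, had 15.5, 16.0 and 28.6 CPM in WT and 23.4, 15.3 and 28.1 CPM in CKO pools. Kcng4 had a log2 fold change of 0.15 (SE 0.42), and -0.01 without the third CKO pool. Kcnf1, the Kv5.1 subunit, had 3.94, 1.91 and 0.291 CPM in WT and 2.28, 18.6 and 0.197 CPM in CKO pools. Only the second CKO pool was high for Kcnf1, so its log2 fold change of 1.77 (SE 1.53) became -0.72 without that pool.

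EAG channels were also uneven. Kcnh8 had 8.68, 9.01 and 20.6 CPM in WT and 15.0, 19.7 and 3.27 CPM in CKO pools, with a log2 fold change of -0.01 (SE 0.72). Kcnh5 had 4.53, 6.04 and 6.81 CPM in WT and 9.25, 24.1 and 0.787 CPM in CKO pools. The CKO pools of Kcnh5 held both its highest and its lowest value, and its log2 fold change of 0.97 (SE 1.02) was -0.21 without the second CKO pool. Kcnh1 had 2.10, 0.590 and 9.25 CPM in WT and 0.368, 2.11 and 0.177 CPM in CKO pools. The third WT pool was far above the rest for Kcnh1, and its log2 fold change of -2.17 (SE 1.34) was -0.62 without it.

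KCNQ channels carry the M current, which steadies neurons near threshold. Kcnq3 had 12.1, 11.9 and 29.3 CPM in WT and 17.2, 10.7 and 23.4 CPM in CKO pools. Its log2 fold change was -0.05 (SE 0.53), and 0.51 without the third WT pool.

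Accessory subunits were dominated by Kcnip3, also called calsenilin or DREAM, a calcium sensor that binds Kv4 channels and also represses transcription. Kcnip3 had 485, 495 and 662 CPM in WT and 585, 428 and 362 CPM in CKO pools. The groups overlapped, with a log2 fold change of -0.26 (SE 0.25). The direction of Kcnip3 differed by library, at 0.20 in the first and -0.60 in the second. The genotypes overlapped in the first libraries. In the second they did not, at 634 to 782 CPM in WT and 389 to 624 CPM in CKO pools. Kcnip3 exceeded Kcnd2, the most abundant Kv4 pore gene here, by 15.6 to 32.7 times in CPM per kb in every pool. Kcnip1, from the same family, had 15.8, 44.2 and 55.7 CPM in WT and 26.8, 18.4 and 10.8 CPM in CKO pools. The first WT pool lay within the CKO range, and the log2 fold change of Kcnip1 was -1.04 (SE 0.56), or -0.68 without the third WT pool. 6 of the 15 accessory genes were too low to test.

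The spread between the libraries of a pool bears on most of these values. 21 members had a mean of 10 to 100 CPM. Their libraries differed by more than 4-fold in 29 of 126 gene-and-pool pairs (23.0%), against 13.4% for all genes in that band. These members lay low in the band, with means of 10.1 to 36.8 CPM apart from Kcna2 at 78.8 CPM. For all genes the share was 28.9% at 1 to 10 CPM. Members and all genes were not matched for level within a band, here or below, so a difference in level may enter these comparisons. The third WT pool held 12 of the 29, the second WT pool 6, the second CKO pool 5, the first WT pool 4, the third CKO pool 2 and the first CKO pool 0. In the third WT pool the median fold between libraries was 5.29 for these members and 2.68 for all genes in that band. The 6 members above 100 CPM differed by more than 4-fold in 2 of 36 pairs (5.56%), against 2.79% for all genes in that band. Of 53 members tested in both libraries, 31 kept the sign of their fold change and 22 did not. The coefficient of variation over the 6 pools had a median of 34.4% for members above 100 CPM, 53.9% at 10 to 100 CPM and 79.0% at 1 to 10 CPM. Over all tested genes the same bands had 26.7%, 38.5% and 65.2%.

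**Figure D5:**
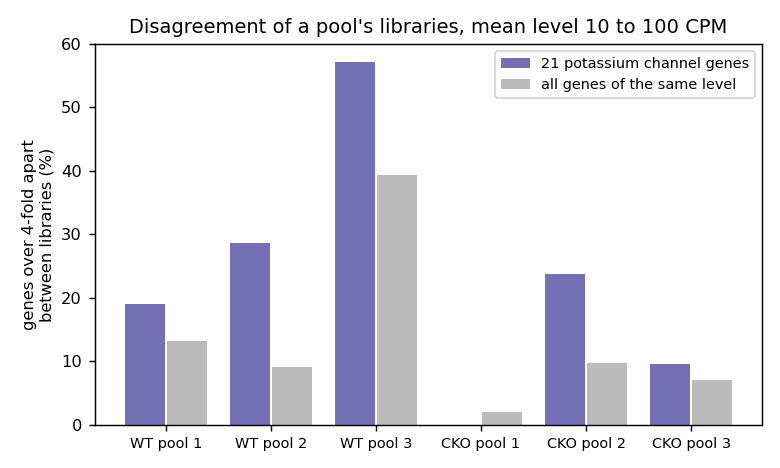
Percent of genes more than 4-fold apart between the libraries of a pool (vertical axis from 0), for 21 potassium channel genes (purple) and all 8933 genes (grey) with a mean of 10 to 100 CPM, in each of the 6 pools. The third WT pool is highest for both, with 12 of 21 members and 39.4% of all genes, and the first CKO pool is lowest.

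Extreme values also gathered in a few pools. Of the 66 tested members, the third WT pool was lowest for 29 (43.9%) and highest for 20 (30.3%), where all genes gave 29.6% and 24.5%. The second CKO pool was highest for 18 members (27.3%), against 16.1% of all genes. The 21 untested members were spread by detection: 21 had a read in the second CKO pool, 19 in the second WT pool, and 8 to 13 in each other pool. The second CKO and second WT pools also had the most genes with a read, 38187 and 33937. Whether detection in these pools accounts for the low members was not tested.

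Several members lie beside another of their family, at very different levels. Kcnj16 and Kcnj2 lie 38.2 kb apart on chromosome 11, with 69.6 and 0.661 CPM per kb. Kcnj10 and Kcnj9 lie 11.9 kb apart on chromosome 1, with 27.7 and 0.597 CPM per kb. Kcna2 and Kcna3 lie 63.1 kb apart on chromosome 3, with 6.62 and 1.05 CPM per kb. Kcna6, Kcna1 and Kcna5 share a stretch of chromosome 6, with 6.20, 1.68 and 0.254 CPM per kb. In these loci 1 gene held most of the signal. Kcnj1 and Kcnj5, 28.1 kb apart on chromosome 9, were both near 0, at 0.0494 and 0.0381 CPM per kb.

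8 members lie on chromosome 3 with Notch2. The nearest, Kcnd3, is 7.30 Mb away, and Kcnn3, Kcna3, Kcna2 and Kcnc4 follow within 9.29 Mb. All 8 overlapped between genotypes, and Kcnd3 had a log2 fold change of -0.99 (SE 0.67). Without the third WT pool, which had 3.63 and 97.0 CPM of Kcnd3 in its libraries, it was -0.19. The direction of Kcnd3 reversed between libraries, at 0.88 in the first and -1.58 in the second. Exons or introns of 37 members overlap another gene of the count tables, 34 of them on the opposite strand, and the counting is not stated to use strand. Among the named genes these include Kcnip3, Kcnn2, Kcnma1, Kcnd2 and Kcna6. Kcnk1, Kcnj10, Kcnj16 and Kcnt1 overlap none.

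Other genes of potassium handling were read from a list of 40 pumps, pump regulators, cotransporters, HCN channels, sulfonylurea receptors and channel partners, of which 35 were tested. 0 of 35 passed edgeR's test after adjustment. Before adjustment, 1 was higher and 3 were lower at a p under 0.05, where all genes gave 3.01% and 2.9%. Pools separated upward for 2 and downward for 2, where all genes gave 7.67% and 8.17%. The median log2 fold change was 0.03. Fxyd6, a pump regulator, had 299.9, 277 and 269 CPM in WT and 215, 189 and 114 CPM in CKO pools. Fxyd6 separated downward, with a log2 fold change of -0.71 (SE 0.27), and was not past the adjusted threshold. Lrrc55, an auxiliary subunit of BK channels, had 0.32, 0.14 and 0.11 CPM in WT and 0.77, 7.36 and 2.36 CPM in CKO pools. Lrrc55 was the 1 gene of the list that DESeq2 called, with an adjusted p of 0.0230. By edgeR its adjusted p was 0.790. Its lowest WT value, 0.11 CPM, was close to the level of 3 reads, and it was not tested in the first libraries alone. These 2 genes were picked after their values had been seen.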

How the data were processed

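The deposited files hold whole-number read counts per gene symbol, which the authors made with Bowtie2, HTSeq and GRCm38, per the submitters' processing notes. Versions, strand setting and annotation are not given in the sources used here. The 4 files of each pool were summed after the 5 summary lines were removed. Reads in no gene made up 16.0% to 35.3% of a pool. Counts were tested with edgeR 4.0.16 (filterByExpr, TMM, robust quasi-likelihood F test, Benjamini-Hochberg adjustment over all 21477 genes) in R 4.3.3, with a call at an adjusted p under 0.05. The code was tested on simulated data. Alternatives used DESeq2 1.42.0, limma 3.58.1, other scalings and filters, single libraries, a replicate block and each pool left out. Exon lengths came from GENCODE M21 and promoter windows from RefSeq. Named were the 10 most abundant members per kb, the 5 with the smallest p in each direction with a mean of at least 1 CPM, and the 2 most abundant of each role, 24 in all, of which 1 is not reported here. The labels do not say that pools are separate litters or days, so p-values measure only the spread between these pools. The members, gene lists and tests were chosen with earlier results of these data known.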

Additional observations from a re-analysis of the deposited data

How the results depend on the processing

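No potassium channel gene passed the adjusted threshold under any of the 15 alternatives. Members at an unadjusted p under 0.05 and higher in CKO numbered 4 with limma-voom, with the second libraries and with the replicate block on the pool number, where all genes gave 3.38%, 1.9% and 2.88%. Lower members numbered 1 with no filter, with DESeq2 and with the second libraries, where all genes gave 2.11%, 4.54% and 1.57%. With the second libraries, 5 of 60 members separated upward, against 6.39% of all genes. DESeq2 called 1 other gene of potassium handling. At an unadjusted p under 0.05, 4 of 69 members were higher without the first WT pool and 4 of 71 without the second. All genes gave 2.8% and 6.65% there. Without the first CKO pool 1 of 73 members was higher, against 2.02% of all genes. Without the second CKO pool 3 of 68 members were lower, against 1.62% of all genes. Leaving out 1 pool at a time gave 1 to 4 higher and 0 to 3 lower members at that p, and 4 to 8 and 2 to 6 separated members, as 5 pools separate more easily than 6. All genes then gave 1.73% to 6.65% higher and 0.958% to 3.87% lower at that p, and 11.4% to 16.3% and 10.8% to 14.8% separated. These settings tested 68 to 74 members. The members' median log2 fold change then ranged from -0.21 to 0.17, and that of Notch2 from -1.15 to -0.29. Library totals without further scaling moved the median of all genes from -0.06 to 0.04 and put the members' summed level at a mean of 2043 CPM for WT and 2450.0 CPM for CKO.

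11 of the 23 genes named kept their sign in every alternative that tested them, Kcnk1, Kcnj10, Kcnma1 and Kcnt1 among them. Of these 11, Kcna3 was tested in 14 of the 15 alternatives and Kcnj9 in 13, neither with the first libraries alone. Kcna2 kept its sign only at -1.7e-05 with the second libraries. Over the named genes 39 of 342 values reversed, and the cause was not tested. With library totals, log2 fold changes became 0.095 for Kcnn3, 0.10 for Kcnd2, 0.13 for Kcnh8 and 0.037 for Kcnq3. With no filter they became 0.025 for Kcnn3, 0.0070 for Kcnd2 and 0.0049 for Kcnh8, and with a filter of 1 CPM in 3 pools 0.011, 0.0057 and 0.011. With limma-voom they became 0.16 for Kcnn3, 0.0081 for Kcnk10, 0.027 for Kcnh8, -0.019 for Kcnh5 and 0.32 for Kcnq3. The first libraries gave 0.20 for Kcnip3, 0.44 for Kcna6 and 0.40 for Kcnh8. The second libraries gave -0.20 for Kcnj16, 0.43 for Kcnd2 and 0.11 for Kcnq3. The replicate block gave 0.13 for Kcnn3 and 0.0078 for Kcnq3. Leaving out 1 pool gave ranges of -0.16 to 0.29 for Kcnd2, -0.72 to 2.66 for Kcnf1, -0.013 to 0.50 for Kcng4, -0.21 to 1.55 for Kcnh5 and -0.48 to 0.51 for Kcnh8. The same ranges were -1.73 to 0.36 for Kcnk10, -0.90 to 0.17 for Kcnk13, -0.32 to 0.37 for Kcnn3 and -0.32 to 0.51 for Kcnq3.

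Pools share only a number across genotypes. The correlation of same-numbered pools' deviations was 0.0559, 0.0218 and -0.0280, so the numbers were not taken as pairs. Under the replicate block Kcnk1 kept a log2 fold change of 0.83, with 0 members past the adjusted threshold.

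Depth set little limit above 10 CPM, where 1 read is 0.0175 to 0.0265 CPM. Pools varied by more than that: edgeR's common biological coefficient of variation was 0.725, and the median over tested genes was 0.612. Both were estimated between pools with their libraries summed, so they do not measure the spread between libraries.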
